A study of Homo sapiens with 28 samples.

Results

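The transcripts described here encode the principal heat shock chaperones of human cells, HSPB1, HSPA1A, HSPA8, HSPH1, DNAJB1, BAG3, HSP90AA1, HSP90AB1, HSPD1 and HSPE1. The 10 genes were listed by name, and each was read from the probeset with the highest mean among those that carry exactly 1 gene symbol. By this rule 9 of the 10 were measured, out of 18417 genes on the arrays. HSPA1A, the stress-inducible HSP70, was not among them, because all 5 of its probesets also carry the symbol of its near-identical neighbour HSPA1B.

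The samples were HEK293 cells, a line derived from human embryonic kidney, that received lentiviral short hairpin RNAs (shRNAs) under the U6 promoter and were kept in 2 µg/ml puromycin until harvest, 6 days in all per the labels. The hairpins targeted the RNA-processing factors CLP1, HNRNPL, DDX5, DDX17, CPSF6 and PABPC1, or the DNA and chromatin factors PARP1, PRKDC and SUPT16H. Control cells received a hairpin against the bacterial gene lacZ, so that infection, selection and hairpin expression were shared by all groups. The first array series held 3 different hairpins each for CLP1, HNRNPL, DDX5 and DDX17, 1 array for CPSF6 and 1 for lacZ. The second held 3 hairpins each for PABPC1, PARP1, PRKDC and SUPT16H, and 2 lacZ arrays. Cells were infected populations, the wild-type genes remained in place, and a hairpin can also act on transcripts other than its target.

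Heat shock chaperones keep proteins from aggregating and help them fold. HSP70 proteins, here HSPA8, bind exposed hydrophobic stretches of client proteins in a cycle that J-domain proteins such as DNAJB1 drive forward and that exchange factors such as HSPH1 and BAG3 reset. HSP90 proteins finish the folding of kinases and receptors, the small heat shock protein HSPB1 holds unfolded clients without ATP, and HSPD1 with its lid HSPE1 folds proteins inside mitochondria. Heat shock factor 1, HSF1, is activated when unfolded proteins titrate chaperones away, and it binds heat shock elements, inverted repeats of GAA units, in the promoters of these genes.

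Stretches of the members' promoters that match a heat shock element are shown because HSF1 binds such elements. RefSeq promoter windows (GRCh38.p14) of 300 bases, 250 before and 50 after a transcription start, were searched on both strands for 3 alternating units set apart by any 2 bases, TTC-NN-GAA-NN-TTC or GAA-NN-TTC-NN-GAA. All 10 genes had at least 1 window, and 4 of the 10 held a match, HSPA8, HSP90AA1, HSP90AB1 and HSPD1, against 166 of 27305 genes (0.608%) and 172 of 35116 windows (0.49%) in the whole set. With 2 units, TTC-NN-GAA or GAA-NN-TTC, which lie within every 3-unit match and were searched after the first result was seen, HSPA1A, HSPB1 and DNAJB1 also had matches, 7 of 10 against 16.2% of all genes. HSPH1, BAG3 and HSPE1 had none in these windows. Stretches of 30 bases are printed 5′ to 3′ on the strand of the gene, with the matching units and the bases between them in capitals.
HSPA8, chr11:123062170-123062199, minus strand: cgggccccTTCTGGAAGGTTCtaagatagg
HSPA8, chr11:123062345-123062374, minus strand: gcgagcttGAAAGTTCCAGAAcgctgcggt
HSP90AA1, chr14:102087111-102087140, minus strand: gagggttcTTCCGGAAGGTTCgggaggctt
HSP90AB1, chr6:44247823-44247852, plus strand: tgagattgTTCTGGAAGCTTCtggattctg
HSPD1, chr2:197500061-197500090, minus strand: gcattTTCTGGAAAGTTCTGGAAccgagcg
HSPB1, chr7:76302480-76302509, plus strand: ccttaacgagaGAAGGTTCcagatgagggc
DNAJB1, chr19:14518456-14518485, minus strand: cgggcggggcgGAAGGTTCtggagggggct

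The match of HSPA8 nearest its start began at position -55, that of HSP90AA1 at -88, that of HSP90AB1 at -112, and that of HSPD1 at -245, where position -1 is the base before the start. Several of these genes have more than 1 annotated start, and the match belongs to only 1 of them. HSPD1 matched in 1 of its 2 windows, that of the downstream start at position 197499840 of chromosome 2, so that the match lies inside the gene as counted from the upstream start at 197500274. HSP90AA1 matched in 1 of 2 windows (start at 102087044) and HSP90AB1 in 1 of 3 (start at 44247943), in each the start furthest downstream. HSPA8 has a single window. In HSPD1 overlapping 3-unit matches form a run of 4 units. The 2-unit match printed for DNAJB1 began at -77 of the middle one of its 3 starts (14518397) and that of HSPB1 at -182. HSPD1 and HSPE1 lie head to head on chromosome 2, and the HSPD1 match falls outside the window of HSPE1. A match describes letters only, and the arrays did not measure binding.

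Values are log2 intensities. An array's median intensity lay between 61.5 and 74.0 in the first series, and between 54.5 and 58.3 in the second, so levels were compared only within a series. All 8 targets tested were lower than lacZ in 3 of 3 hairpins, and 5 of 8 passed the test. CLP1 (-0.57), HNRNPL (-0.93) and DDX5 (-1.04), all in the first series, did not pass. The lacZ arrays numbered 1 (first series) and 2 (second series) differed over probesets with an SD of 0.07, against 0.2 to 0.77 for pairs of hairpins to the same gene, and were counted as 1 sample. Comparisons with lacZ thus have 1 control array in the first series and 2 in the second. The labels do not say whether lacZ arrays came from separate cultures. The p-values use a spread pooled over all groups, mainly that between different hairpins to the same gene, and part of it may be technical. The lone lacZ array of the first series was assumed to vary like the other groups. Among markers described in HEK293 cells, VIM, KRT8, KRT18 and NEFL averaged 8.6 to 10.39, PAX2 6.32 and NEFM 5.76. Blood cell markers (4 of 5 measured) averaged 3.58 to 5.77, fibroblast markers (5 of 5) 3.66 to 5.58 and keratinocyte markers (5 of 5) 4.33 to 6.14.

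**Figure D1:**
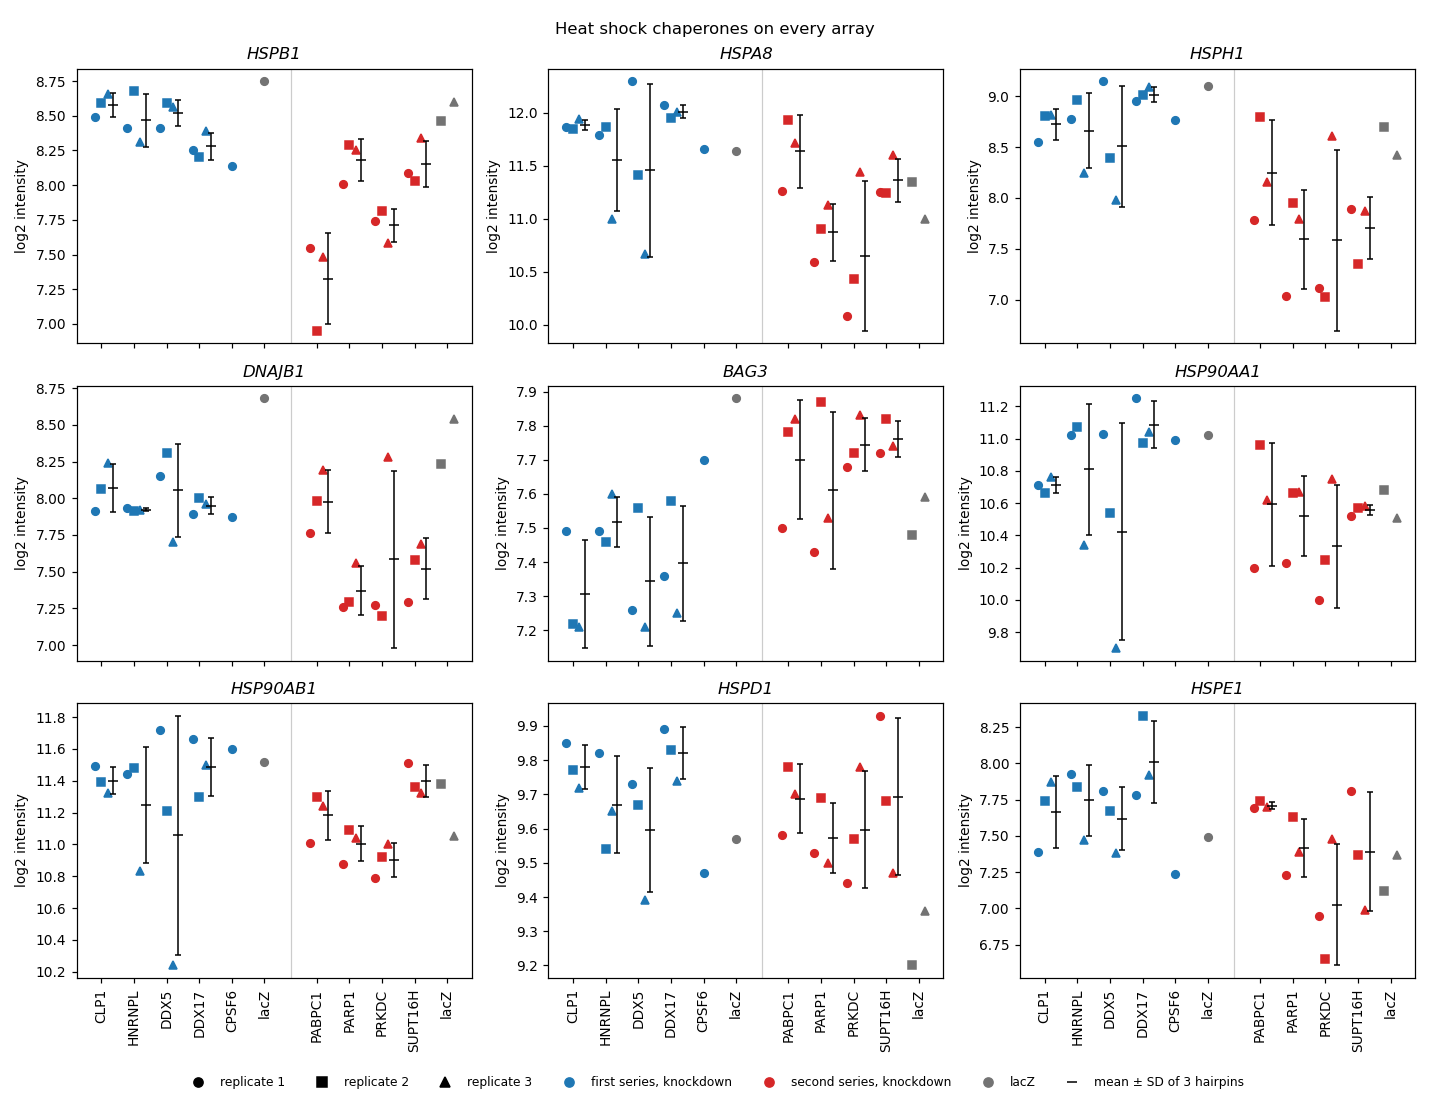
Log2 intensity (vertical axis) of the 9 measured chaperone genes on every array, with knockdowns of the first series in blue, those of the second in red and lacZ in grey. Symbols mark replicates, and black bars the mean ± SD of 3 hairpins. The lacZ circle of the first series and lacZ square of the second appear to be the same array normalized apart. HSPB1 lay below every lacZ array of its series on all 24 hairpin arrays of the 8 tested knockdowns.

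HSPB1, the small heat shock protein HSP27, showed the clearest difference of the group. It read 7.55, 6.95 and 7.48 in the 3 PABPC1 hairpins, and 8.46 and 8.60 in lacZ. Every PABPC1 array lay below every other array of the second series for this gene, and the difference from lacZ was -1.20 ± 0.17 (SE, limma, adjusted p = 0.000189), a level 0.434 times that of lacZ. It stayed past the threshold under all 14 alternatives and without any single array (largest adjusted p = 0.00864, without lacZ replicate 3). PABPC1 is a poly(A)-binding protein of the cytoplasm that coats mRNA tails and promotes translation. HSPB1 was the only member of the 9 called in PABPC1 knockdown, where 5.76% of all genes were called.

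HSPB1 averaged 7.33 ± 0.33 in PABPC1 knockdown (SD, n = 3), against a mean of 8.02 over the other 3 knockdowns of the series, and was lower, with a difference of -0.69 ± 0.13 (SE, adjusted p = 0.0292). This was the only member called in that comparison, in which 0.0869% of all genes were called. The call was lost without PABPC1 hairpin 2, the lowest array (-0.50, adjusted p = 0.389), and without hairpin 3 (-0.76, adjusted p = 0.123). At an unadjusted p under 0.05 there were 5 of the 9 members, beside 10.3% of all genes. HSPB1 was the one that passed after adjustment, and HSPA8, HSPH1, HSPE1 and DNAJB1, with differences of 0.43 to 0.68, did not. HSPB1 was likewise the only member that differed among the 4 knockdowns of the second series (moderated F test, adjusted p = 0.0144, against 0.939% of all genes called), and this call was lost without PABPC1 hairpin 2 (0.0576).

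In knockdown of PRKDC, the kinase subunit of the DNA-PK complex that joins broken DNA ends, HSPB1 read 7.74, 7.81 and 7.58, against 8.46 and 8.60 in lacZ. The arrays did not overlap and their spread was small. HSPB1 was lower, with a difference of -0.82 ± 0.17 (adjusted p = 0.0026), and passed under all 14 alternatives (largest adjusted p = 0.0434, with all arrays quantile normalized together). PARP1 hairpins read 8.01, 8.29 and 8.25 and SUPT16H hairpins 8.09, 8.03 and 8.34, all below both lacZ arrays without passing the test (-0.35 ± 0.17, adjusted p = 0.27, and -0.38 ± 0.17, adjusted p = 0.15).

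No first-series knockdown passed the test for HSPB1 against lacZ. Arrays of DDX17, an RNA helicase, read 8.25, 8.20 and 8.39 against 8.75 in the single lacZ array (-0.47 ± 0.22, adjusted p = 0.307). CLP1, HNRNPL and DDX5 differed by -0.17, -0.29 and -0.23, and the CPSF6 array, without replicates, read 8.14. The lacZ array was the highest of the 14.

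DNAJB1, the heat-inducible J-domain protein that stimulates HSP70, was lower than the mean lacZ level in each of the 8 knockdowns, by 0.41 to 1.02, and this direction held with quantile normalization, median centring and both lacZ arrays used for every knockdown. PARP1 hairpins read 7.26, 7.29 and 7.56 and lacZ 8.23 and 8.54. These groups did not overlap, and DNAJB1 was lower, with a difference of -1.02 ± 0.24 (adjusted p = 0.0113) in PARP1 knockdown, the only member called there beside 5.44% of all genes. PARP1 synthesizes poly(ADP-ribose) at DNA breaks and on chromatin.

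Knockdown of SUPT16H, part of the FACT complex that moves histones ahead of polymerases, gave DNAJB1 values of 7.29, 7.58 and 7.69, against the same 8.23 and 8.54 in lacZ. The groups did not overlap, and DNAJB1 was lower, with a difference of -0.86 ± 0.24 (adjusted p = 0.0254), again the only member called, beside 9.53% of all genes. In PRKDC knockdown it read 7.27 and 7.20 in hairpins 1 and 2 but 8.28 in hairpin 3, which lay between the lacZ arrays, and the difference was -0.80 ± 0.24 (adjusted p = 0.0149). PABPC1 hairpins read 7.76, 7.98 and 8.19, all below both lacZ arrays, without passing the test (-0.41 ± 0.24, adjusted p = 0.273).

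All 3 DNAJB1 calls needed both lacZ arrays, and each was lost when either was left out, which leaves 1 control. Without lacZ replicate 2 the differences grew, to -1.17 (PARP1), -0.96 (PRKDC) and -1.02 (SUPT16H). Without lacZ replicate 3 they shrank, to -0.86 (PARP1), -0.65 (PRKDC) and -0.70 (SUPT16H). The PARP1 call was kept when any 1 of its hairpins was left out. The PRKDC call was also lost without PRKDC hairpin 1 (0.0619) or 2 (0.0598) and was kept without hairpin 3 (-1.15, 0.000571). The SUPT16H call was lost without SUPT16H hairpin 1 (0.0753) or 2 (0.061). With all arrays quantile normalized together PRKDC (-0.56, 0.0585) and SUPT16H (-0.69, 0.0524) fell outside the threshold. The direction was the same in each case.

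In the first series DNAJB1 read 7.93, 7.91 and 7.92 in HNRNPL hairpins and 7.89, 8.00 and 7.96 in DDX17 hairpins, against 8.68 in lacZ. CLP1 arrays read 7.91, 8.06 and 8.24, DDX5 arrays 8.15, 8.31 and 7.70, and the CPSF6 array 7.87. All of them were under the control array, with differences of -0.61 ± 0.30 (CLP1), -0.76 ± 0.30 (HNRNPL), -0.62 ± 0.30 (DDX5) and -0.72 ± 0.30 (DDX17), and adjusted p-values between 0.229 and 0.556. Since the 4 comparisons share that array, which also appears to be lacZ replicate 2 of the second series, they are not separate observations. The means of the 4 first-series knockdowns lay between 7.92 and 8.07 (F test, adjusted p = 0.907).

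HSPH1, the HSP110 exchange factor of HSP70, read 7.11, 7.03 and 8.61 in PRKDC hairpins and 8.70 and 8.42 in lacZ. Hairpins 1 and 2 were the lowest arrays of the series together with PARP1 hairpin 1, whereas hairpin 3 stood between the lacZ arrays. The difference was -0.98 ± 0.38 (adjusted p = 0.0469), and the call was lost without lacZ replicate 2 (0.231), lacZ replicate 3 (0.103), PRKDC hairpin 1 (0.16) or hairpin 2 (0.168), with quantile normalization (0.101), with a pseudocount of 16 (0.0523), without the intensity trend (0.0559) and with the replicate block (0.052). Without hairpin 3 it was -1.49 (0.00477).

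HSPB1, DNAJB1 and HSPH1 made up the 3 of 9 members called in PRKDC knockdown, all lower. In this comparison 35.7% of all genes were called, so the members' share was near the background. Without lacZ replicate 2 the calls were 498 genes, against 6574 with both controls, and 1 member, HSPB1. The members' median difference was -0.31, beside 0.10 over all genes. PRKDC itself read 7.24, 7.37 and 7.08 in hairpins 1, 2 and 3, and hairpin 3 was the array whose DNAJB1 and HSPH1 were near lacZ. Whether these values go with the level of PRKDC was not tested.

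PARP1 hairpins read 7.04, 7.95 and 7.79 for HSPH1 and SUPT16H hairpins 7.89, 7.35 and 7.87, all below the lacZ arrays (-0.96 ± 0.38, adjusted p = 0.143, and -0.85 ± 0.38, adjusted p = 0.137). PABPC1 hairpins spread over 7.78, 8.80 and 8.16 and overlapped lacZ. In the first series HSPH1 differed from lacZ by -0.08 to -0.59, with 11 of 12 hairpin arrays below the control. With both lacZ arrays used for every knockdown and no series term, the difference was above 0 in 2 of the 8 knockdowns, a setting in which the median of all genes moved to between 0.23 and 0.27 in the first series.

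**Figure D2:**
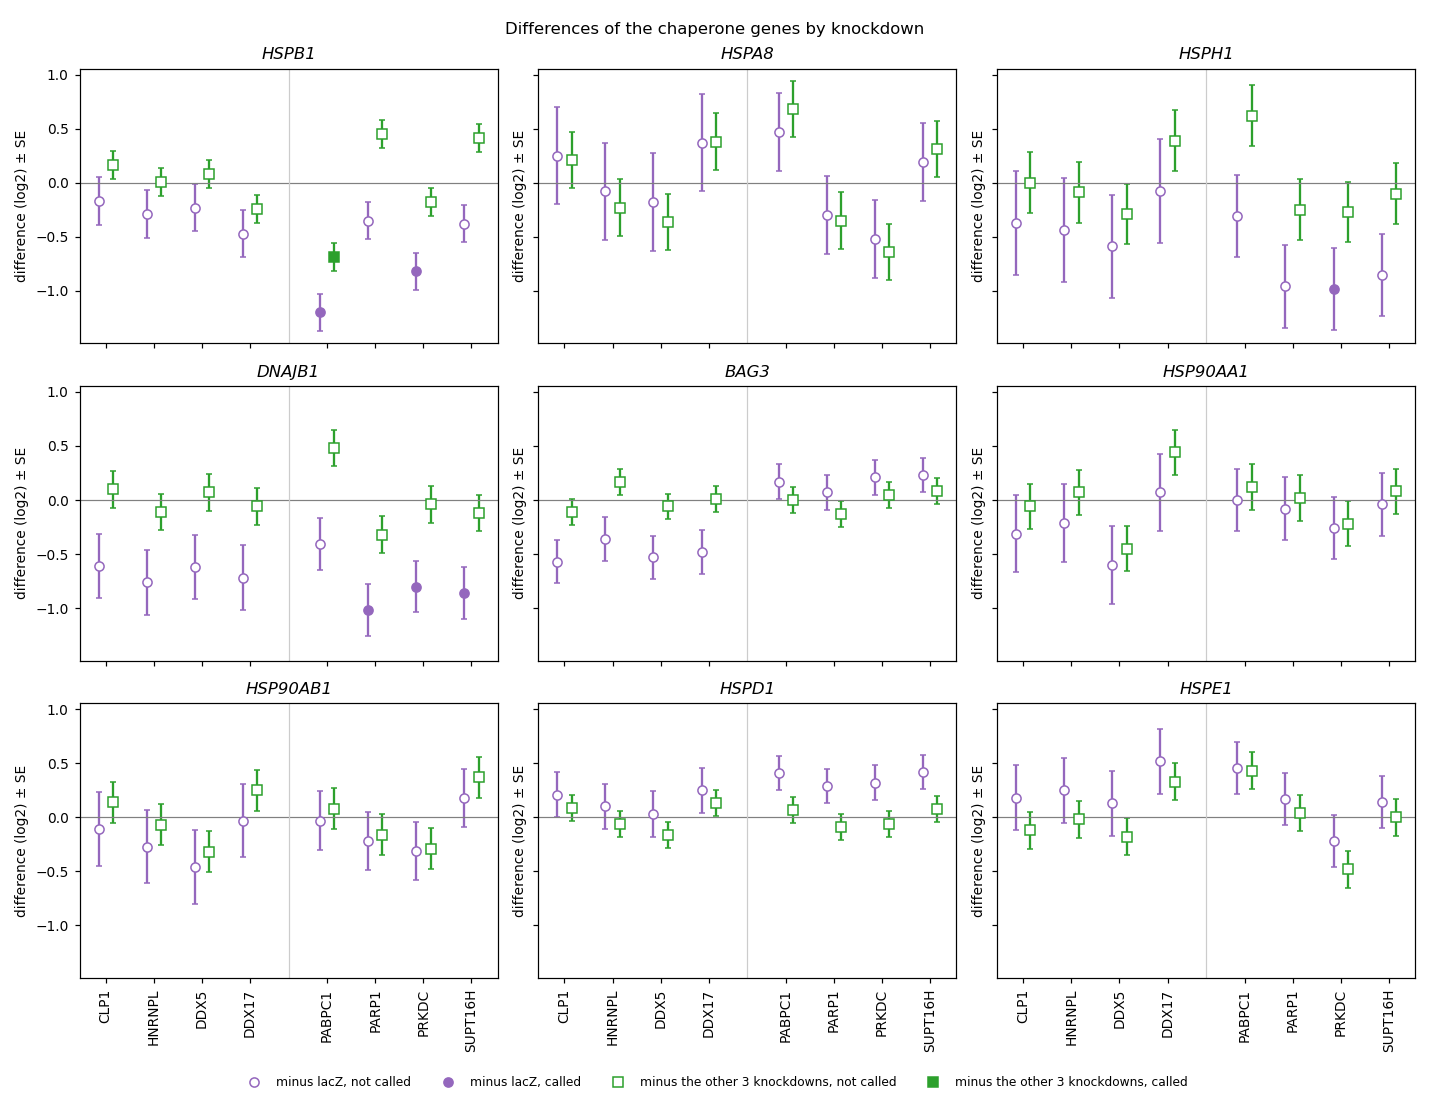
Difference in log2 intensity (vertical axis, ± SE of limma) of each chaperone gene in the 8 knockdowns with 3 hairpins, minus lacZ (circles) and minus the mean of the other 3 knockdowns of the series (squares). Filled symbols passed an adjusted p of 0.05. These are HSPB1 in PABPC1 and PRKDC, DNAJB1 in PARP1, PRKDC and SUPT16H and HSPH1 in PRKDC against lacZ, and HSPB1 in PABPC1 against the other knockdowns.

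HSPA8, the constitutive HSP70 of the cytosol, and the HSP90 pair HSP90AA1 and HSP90AB1 passed in no comparison. HSPA8 read 11.26, 11.93 and 11.72 in PABPC1, 10.59, 10.90 and 11.13 in PARP1, 10.08, 10.43 and 11.44 in PRKDC and 11.25, 11.24 and 11.60 in SUPT16H hairpins, against 11.35 and 11.00 in lacZ. Differences from lacZ ran in either direction, between -0.52 (PRKDC) and 0.47 (PABPC1), and the 3 hairpins of PRKDC alone spanned more than that range. HSP90AA1 differed from lacZ by -0.60 (DDX5) to 0.07 (DDX17), and HSP90AB1 by -0.46 (DDX5) to 0.18 (SUPT16H).

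In DDX5 knockdown these genes followed the hairpin. HSPA8 read 12.30, 11.41 and 10.67 in DDX5 hairpins 1, 2 and 3, against 11.64 in lacZ. HSP90AA1 read 11.03, 10.54 and 9.70, against 11.02, and HSP90AB1 read 11.72, 11.21 and 10.24, against 11.52. Hairpin 1 was at or above lacZ and hairpin 3 was the lowest array of the series for all 3 genes. HSPH1 had the same order, with 9.15, 8.39 and 7.98, against 9.10. DDX5 itself read 9.72, 9.60 and 9.26 in hairpins 1, 2 and 3. Whether the chaperone values go with the level of DDX5 was not tested.

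HNRNPL hairpin 3 was the next lowest array for HSPA8 (11.00), HSP90AA1 (10.34) and HSP90AB1 (10.83). Hairpins 1 and 2 of HNRNPL, a splicing regulator, read 11.79 and 11.87, 11.02 and 11.07, and 11.44 and 11.48 for these genes. HNRNPL itself read 8.78, 9.11 and 9.44 in hairpins 1, 2 and 3. Its own level was thus highest in hairpin 3, where these chaperones were lowest, the reverse of the DDX5 order. Against the other 3 knockdowns 0 of 9 members were called in DDX5 (limma, 1 at an unadjusted p under 0.05, beside 9.2% of all genes), where 0.038% of all genes were called, but 3 passed without DDX5 hairpin 1, namely HSPA8, HSP90AA1 and HSP90AB1, all lower. In that setting the number of genes called went up to 3159, against 7 with all hairpins.

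These 4 genes moved with the brightest genes of an array, closely in the first series and less so in the second. The mean of HSPA8, HSPH1, HSP90AA1 and HSP90AB1 was 11.05, 10.39 and 9.65 in the DDX5 hairpins and 10.76, 10.84 and 10.11 in the HNRNPL hairpins, against 10.82 in lacZ. The median of the 917 non-member genes in the top 5% by mean signal was 10.05, 9.83 and 9.24 in DDX5 and 9.90, 9.91 and 9.60 in HNRNPL, against 9.84 in lacZ. Over the 14 arrays of the first series the correlation of the 2 measures was r = 0.96 (rho 0.78), and over the 13 different arrays of the second counted here r = 0.62 (rho 0.41). Points share knockdowns and array normalization, so this is a description. The median over all genes lay between 6.41 and 6.54 on every first-series array. The part of the brightest genes' shift in the chaperone values was not tested.

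In the second series PRKDC hairpins had a mean of the 4 chaperones of 9.50, 9.66 and 10.45, against 10.53 and 10.25 in lacZ, and a median of the brightest genes of 9.01, 9.13 and 9.25, against 9.48 and 9.47. PRKDC hairpins 1 and 2 were the lowest arrays for both measures. For HSPB1 the correlation with the brightest genes was -0.13 (rho -0.19) in the first series and 0.46 (rho 0.58) in the second, for DNAJB1 0.33 and 0.31, and for BAG3 0.04 in both. HSPD1 gave 0.63 and 0.21, and HSPE1 0.48 and 0.50. In the second series HSPE1 was thus about as close to the brightest genes as HSPH1 (0.49) and HSPA8 (0.53).

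**Figure D3:**
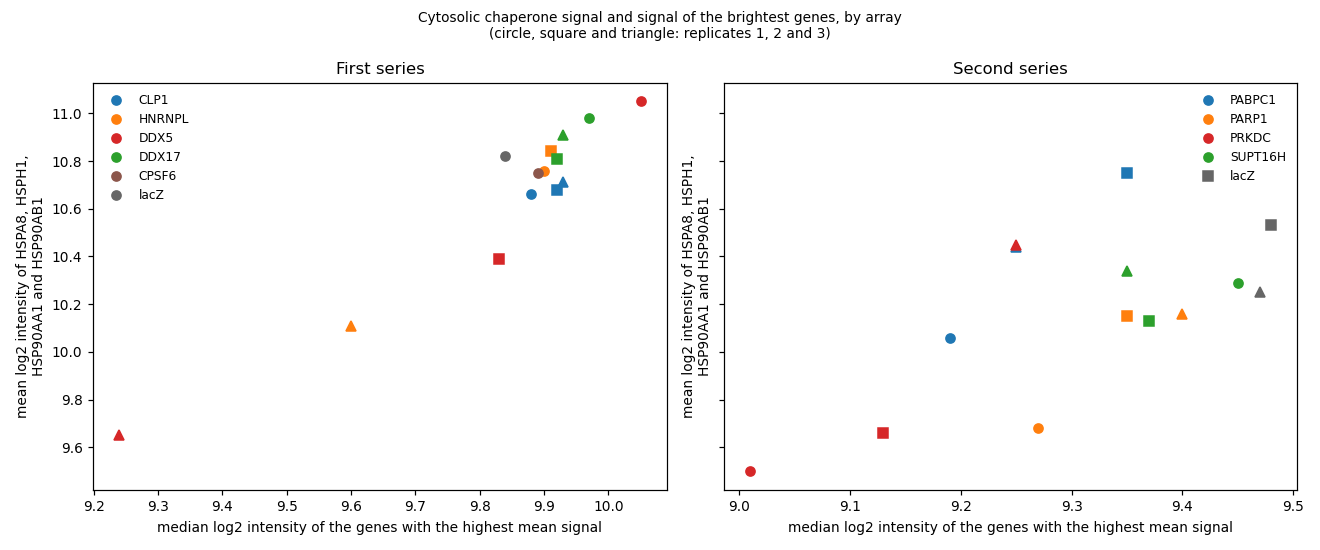
Mean log2 intensity of HSPA8, HSPH1, HSP90AA1 and HSP90AB1 (vertical axis) against the median log2 intensity of the 917 brightest other genes (horizontal axis), 1 point per array, coloured by knockdown with lacZ in grey. In the first series DDX5 hairpin 3 (9.65) and HNRNPL hairpin 3 (10.11) lie at the lower left, and in the second PRKDC hairpins 1 and 2 (9.50 and 9.66) do.

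HSPD1, the mitochondrial chaperonin HSP60, lay above lacZ where HSPB1 lay below it. It read 9.58, 9.78 and 9.70 in PABPC1, 9.53, 9.69 and 9.50 in PARP1, 9.44, 9.57 and 9.78 in PRKDC and 9.93, 9.68 and 9.47 in SUPT16H hairpins, against 9.20 and 9.36 in lacZ. All 12 hairpin arrays were above both lacZ arrays, yet no difference passed the test (0.29 to 0.42, adjusted p between 0.0991 and 0.334). With all arrays quantile normalized together HSPD1 was called higher in all 4 knockdowns of the second series, by 0.63 (PABPC1, adjusted p = 0.00605), 0.46 (PARP1, 0.0428), 0.60 (PRKDC, 0.00336) and 0.49 (SUPT16H, 0.0262). In the first series 10 of 12 hairpin arrays were above the lacZ array (9.57), with differences of 0.03 to 0.25, and the CPSF6 array read 9.47.

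HSPE1, the HSP10 lid of HSPD1, had its highest first-series knockdown mean in DDX17 (8.01, with hairpins at 7.78, 8.33 and 7.92, against 7.49 in lacZ), a difference of 0.52 ± 0.30 that missed the threshold (adjusted p = 0.472) and was called only with both lacZ arrays used for every knockdown. That setting has no series term, and in it the median of all genes moved to 0.25 in DDX17. It called 3814 genes there, against 511 in the main fit. PABPC1 hairpins were nearly identical at 7.69, 7.74 and 7.70, against 7.12 and 7.37 in lacZ (0.46 ± 0.24, adjusted p = 0.223). PRKDC gave the lowest values of the second series, 6.95 and 6.65 in hairpins 1 and 2, and 7.48 in hairpin 3 (-0.22 ± 0.24, adjusted p = 0.458). HSPE1 was thus above lacZ in 7 of 8 knockdowns on average, and called in none.

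BAG3, which links HSP70 to autophagy and to small heat shock proteins, read 7.21 to 7.60 on the 12 hairpin arrays of the first series, all below the 7.88 of lacZ. In the second series the 12 hairpin arrays read 7.43 to 7.87, and 9 of them were above both lacZ arrays (7.48 and 7.59). Differences of -0.36 to -0.57 (first series) and 0.07 to 0.23 (second series) did not pass (lowest adjusted p = 0.243). With all arrays quantile normalized together BAG3 was called higher in PRKDC knockdown (0.48, adjusted p = 0.0264). The lacZ array behind all first-series values appears to be the array that reads 7.48 in the second series, the lower of the controls there. The cause of the opposite signs was not tested.

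In the first series 0 of 9 members were called against lacZ by limma in any knockdown, with 1 member at an unadjusted p under 0.05 in CLP1, 1 in HNRNPL, 2 in DDX5 and 3 in DDX17, beside 9.2%, 13.2%, 11.4% and 14.7% of all genes at that threshold in the same order. The percentage of all genes called after adjustment was 0.956% for CLP1, 1.84% for HNRNPL, 0.842% for DDX5 and 2.77% for DDX17, so that no call among 9 genes is near the background. In CLP1, HNRNPL and DDX5 the knocked-down gene itself did not pass the test against lacZ, so the absence of member calls says little there. The members' median differences were -0.17 (CLP1), -0.27 (HNRNPL), -0.46 (DDX5) and -0.03 (DDX17), against medians over all genes within 0.02 of 0. The members at an unadjusted p under 0.05 were BAG3 in CLP1, DNAJB1 in HNRNPL, both in DDX5, and both with HSPB1 in DDX17, all lower than lacZ.

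Set against the other knockdowns of the series, which leaves out lacZ, no member passed outside PABPC1. The share of all genes called was 0.722% for CLP1, 0.0977% for HNRNPL, 0.874% for DDX17, 0.554% for PARP1, 0.0869% for PRKDC and 0.0109% for SUPT16H. At an unadjusted p under 0.05 the count of members was 0 in CLP1 and HNRNPL, 1 in DDX17 (HSP90AA1, 0.44), 1 in PARP1 (HSPB1, 0.45), 2 in PRKDC (HSPA8, -0.64, and HSPE1, -0.48) and 1 in SUPT16H (HSPB1, 0.41), beside between 8.53% (HNRNPL) and 24.5% (PRKDC) of all genes at that threshold. The F test among the first-series knockdowns called 0 of 9 members (0 at an unadjusted p under 0.05, beside 14.8% of all genes), with 1.11% of all genes called.

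DNAJB1 therefore differed from lacZ in PARP1, PRKDC and SUPT16H without passing between these knockdowns and the rest, at -0.32 ± 0.17 (PARP1), -0.04 ± 0.17 (PRKDC) and -0.12 ± 0.17 (SUPT16H), with adjusted p-values of 0.303, 0.885 and 0.909. PABPC1 was the highest of the 4 knockdowns for DNAJB1 and the lowest for HSPB1 (0.48 ± 0.17, adjusted p = 0.268, for DNAJB1). The order of second-series HSPB1 means was PABPC1 (7.33), PRKDC (7.71), SUPT16H (8.15), PARP1 (8.18) and lacZ (8.53), of which SUPT16H and PARP1 do not differ beyond their spread (SDs of 0.17 and 0.16). For DNAJB1 the order was PARP1 (7.37), SUPT16H (7.52), PRKDC (7.58), PABPC1 (7.97) and lacZ (8.38), and the neighbouring knockdown means lay within their hairpins' spread.

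**Figure D4:**
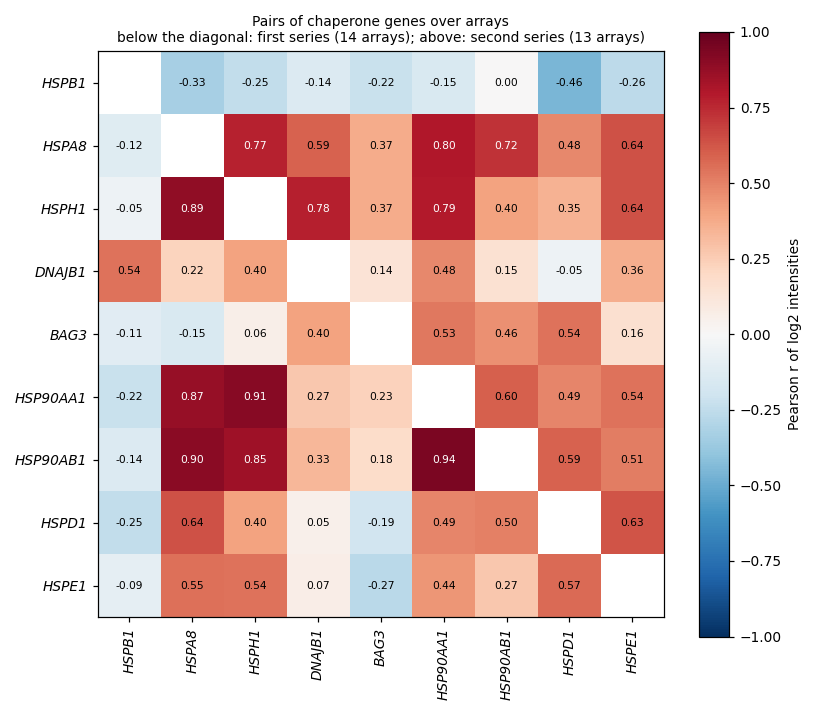
Pearson correlation of the log2 intensities of each pair of chaperone genes over arrays, in the first series below the diagonal (14 arrays) and in the second above it (13 arrays). The lacZ array that appears to be shared with the first series was left out of the second. HSPA8, HSPH1 and HSP90AA1 form a block, with r of 0.87 to 0.91 in first-series arrays and 0.77 to 0.80 in second-series arrays, while HSPB1 stands outside it.

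Across arrays HSPA8, HSPH1, HSP90AA1 and HSP90AB1 correlated with each other, most closely in the first series, and HSPE1 correlated with some of them. Of 36 pairs, 8 had r over 0.5 in both series and 6 were below 0 in both, and the arrays share knockdowns and normalization. HSPH1 and HSPA8 gave 0.89 and 0.77, HSP90AA1 and HSP90AB1 0.94 and 0.60, and the mitochondrial partners HSPD1 and HSPE1 0.57 and 0.63 in the first and second series. HSPE1 was about as close to HSPA8 (0.55 and 0.64) and HSPH1 (0.54 and 0.64) as to HSPD1. HSPH1 with HSP90AB1 gave 0.85 in the first series and 0.40 in the second. DNAJB1 and HSPH1 gave 0.40 in the first series and 0.78 in the second. HSPB1 with DNAJB1 gave 0.54 in the first and -0.14 in the second, and HSPB1 with HSPD1 -0.25 and -0.46.

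Genes most like each member were found by the mean of the within-series correlations, again as a description over 14 and 13 arrays. HSPH1 and the related HSP110 gene HSPA4 gave 0.93, followed by KBTBD8 and SLC4A1AP (0.91 each). HSP90AA1 was closest to VPS35 and HSPA4 (0.90 each) and to its own processed copy HSP90AA2P (0.89), whose probes may read the same transcripts. DNAJB1 was closest to HNRNPF (0.86), the testis-enriched HSP70 HSPA2 (0.85) and the kinase gene SGK1 (0.85).

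HSPA8 had WDR43 (0.91), BZW1 (0.91) and ACTR3 (0.90) as neighbours, and HSP90AB1 had LRPPRC (0.90), KPNA2 (0.88) and NUDT21 (0.87). HSPB1 was closest to secreted and membrane protein genes, APOE (0.77), PCOLCE (0.76) and FGFR2 (0.75). HSPD1 was closest to ANP32A (0.79), TRA2B (0.77) and KARS1 (0.74), HSPE1 to NDUFA12 (0.80), SNRPF (0.80) and PSMC6 (0.78), and BAG3 less closely to FAM83D (0.71), NCKIPSD (0.66) and MAP2K3 (0.64).

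Other genes of the chaperone network were read from 83 listed genes, 74 of which had a probeset of their own (not AHSA1, CRYAA, FKBP5, HSF2, HSPA1B, HSPB11, HSPB2, ST13 or TTC4). Against lacZ 22 of 74 passed in PRKDC (29.7%, 8 higher and 14 lower), 6 in SUPT16H (8.11%, 2 higher and 4 lower), 5 in PABPC1 (6.76%, 2 higher and 3 lower) and 2 in PARP1 (2.7%, 1 higher and 1 lower), shares near or below the 35.7%, 9.53%, 5.76% and 5.44% of all genes. In the first series 1 passed in HNRNPL, 1 in DDX17, and 0 in CLP1 and DDX5 (4 and 5 at an unadjusted p under 0.05, which is 5.41% and 6.76%, beside 9.2% and 11.4% of all genes). None passed against the other knockdowns or by F test, where 2 to 15 of 74 had an unadjusted p under 0.05 (2.7% to 20.3%, beside 8.53% to 24.5% of all genes).

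**Figure D5:**
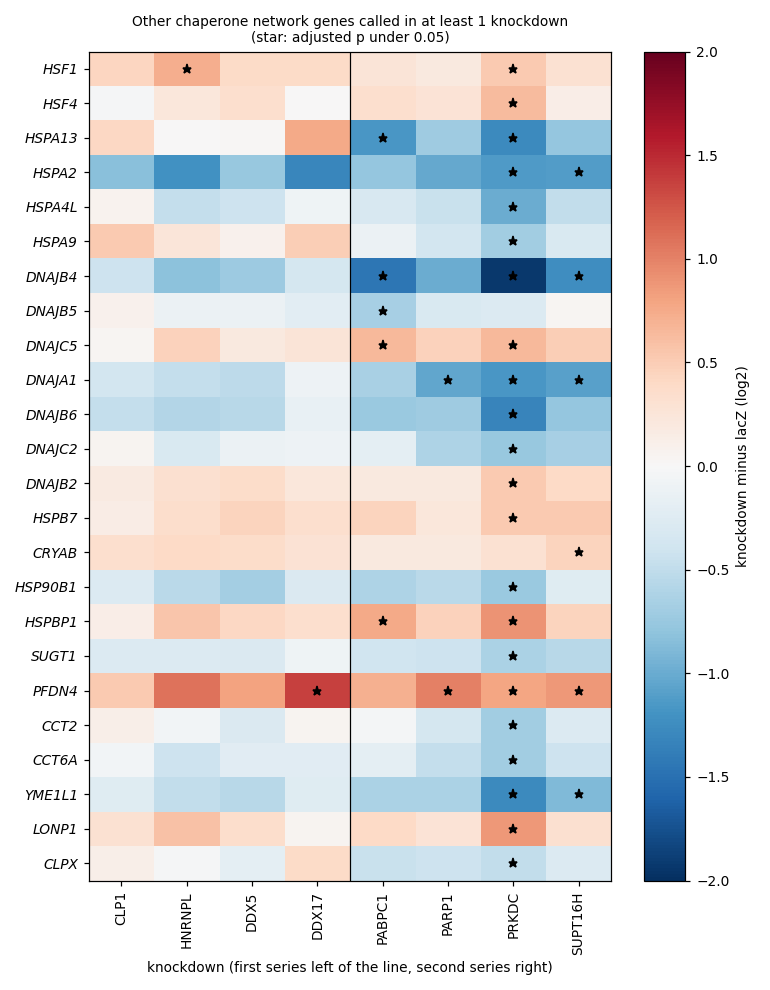
Difference from lacZ (colour, log2, knockdown minus lacZ) of the 24 other chaperone network genes that passed in at least 1 of the 8 knockdowns, in rows by list, with a star where the adjusted p was under 0.05. DNAJB4 in PRKDC knockdown (-1.93) is the deepest blue, and PFDN4 is above lacZ in all 8 columns.

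J-domain proteins, the family of DNAJB1, held the largest difference. DNAJB4, an HSP70 partner close to DNAJB1 in sequence, read 4.88, 5.09 and 5.10 in PRKDC, 5.54, 5.66 and 5.31 in PABPC1 and 6.00, 5.92 and 5.21 in SUPT16H hairpins, against 7.17 and 6.74 in lacZ. No array of these knockdowns reached the lacZ range, and DNAJB4 was lower, with a difference of -1.93 ± 0.30 (PRKDC, adjusted p = 0.000233), -1.45 ± 0.30 (PABPC1, 0.00534) and -1.25 ± 0.30 (SUPT16H, 0.0127). The PRKDC call held without any single array and under every alternative (largest adjusted p = 0.0194), whereas those of PABPC1 (0.188) and SUPT16H (0.221) were lost without lacZ replicate 2, and that of SUPT16H also without its hairpin 3 (0.0602).

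DNAJA1, a farnesylated partner of HSPA8, read 7.09, 7.09 and 8.49 in PRKDC, 7.46, 7.82 and 7.80 in PARP1 and 7.68, 7.41 and 7.86 in SUPT16H hairpins, against 8.68 and 8.78 in lacZ. It was lower, with a difference of -1.17 (adjusted p = 0.00848), -1.04 (0.0464) and -1.08 (0.0293), with PRKDC hairpin 3 again the array nearest lacZ, and each call was lost without lacZ replicate 2 (0.0768 in PRKDC, 0.283 in PARP1 and 0.19 in SUPT16H) or lacZ replicate 3 (0.0556, 0.212 and 0.145). The PARP1 call was also lost without any of the 3 PARP1 hairpins (0.0832 to 0.164), with the replicate block (0.0538) and without the intensity trend (0.0515), and the SUPT16H call without hairpin 1 (0.0548) or 2 (0.104). DNAJB6, a suppressor of aggregation, was lower in PRKDC (8.24, 7.91 and 8.94, against 9.71 and 9.66; -1.32 ± 0.27, adjusted p = 0.00188), a call kept under every alternative. Of the 14 J-domain genes measured 6 were called in PRKDC (2 higher), 3 in PABPC1, 2 in SUPT16H and 1 in PARP1. The shares of all genes called were 35.7%, 5.76%, 9.53% and 5.44% in the same order. The list also held DNAJB5 (-0.66) and DNAJC5 (0.65) in PABPC1.

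Of the 10 other HSP70 and HSP110 genes measured, 4 were called in PRKDC, all lower, beside 35.7% of all genes, with HSPA13 at -1.27, HSPA2 at -1.13 and HSPA4L at -0.99. HSPA2 was also lower in SUPT16H (-1.11, adjusted p = 0.0305), and HSPA13, an HSP70 of microsomes, in PABPC1 (-1.17, adjusted p = 0.0212). HSPA2 lay below lacZ in every tested knockdown, from -0.76 in DDX5 to -1.3 in DDX17. Its largest differences, in DDX17 and HNRNPL (-1.21), were not called. HSPA2 read 5.66, 6.01 and 7.44 in PRKDC hairpins, against 7.48 and 7.54 in lacZ, with hairpin 3 close to the control as for DNAJB1. The list's median difference in PRKDC was -0.57.

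HSF1, the transcription factor above the members, was higher in HNRNPL hairpins, 8.20, 8.26 and 8.39 against 7.56 in the single lacZ array (0.73 ± 0.19, adjusted p = 0.0498), and in PRKDC hairpins, 7.87, 7.81 and 8.00 against 7.22 and 7.51 (0.53 ± 0.15, adjusted p = 0.0138). The HNRNPL call was lost in 5 of 12 alternatives, without any of its 3 hairpins (0.0741 to 0.12), with the first series fitted alone (0.186) and with quantile normalization (0.111), and the PRKDC call in 1 of 14 alternatives, without lacZ replicate 2 (0.38, adjusted p = 0.179). No member was called higher in either knockdown with each series normalized as deposited, whereas HSPD1 and BAG3 were called higher in PRKDC with all arrays quantile normalized together. In the other tested knockdowns HSF1 was also above lacZ on average, by 0.19 (PARP1) to 0.43 (CLP1), without being called. HSF4 was higher in PRKDC as well (0.64), and of the 4 heat shock factor genes listed 3 were measured.

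PFDN4, a subunit of prefoldin, which hands new actin and tubulin chains to the cytosolic chaperonin, read 7.22, 8.45 and 7.64 in DDX17 hairpins, against 6.41 in lacZ (1.36 ± 0.30, adjusted p = 0.0124), a call kept without any single array that could be left out and lost with the first series fitted alone (0.117). PARP1 (1.0), SUPT16H (0.87) and PRKDC (0.79) hairpins were also called higher, and each of these was lost without lacZ replicate 2 (0.291, 0.274 and 0.168), that of PARP1 also without its hairpin 2 (0.0703), and that of SUPT16H also without lacZ replicate 3 (0.0647) or SUPT16H hairpin 1 (0.0736) or 2 (0.0718). The chaperonin subunits CCT2 (-0.70) and CCT6A (-0.69) were lower in PRKDC.

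Of the mitochondrial quality control genes, YME1L1, a protease of the inner membrane, was lower in PRKDC (8.93, 9.02 and 8.54, against 10.26 and 9.95; -1.28 ± 0.23, adjusted p = 0.000831), which held under every alternative, and in SUPT16H (-0.89, adjusted p = 0.0187). In PRKDC the matrix protease LONP1 was higher (0.87) and CLPX lower (-0.50). HSPBP1, an HSP70 exchange factor, was higher in PABPC1 (0.76) and PRKDC (0.90), SUGT1 was lower in PRKDC (-0.64), and HSP90B1, the HSP90 of the endoplasmic reticulum, was lower in PRKDC (-0.75). Of the small heat shock proteins HSPB7 was higher in PRKDC (0.53) and CRYAB in SUPT16H (0.44). Of the 33 calls named here for these lists, 4 held with each array left out in turn. Of the 31 in the second series, 28 were lost without lacZ replicate 2 and 17 without lacZ replicate 3.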

How the data were processed

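Expression was measured in HEK293 cells on Affymetrix Human Gene ST1.0 arrays, after random-primed whole-transcript amplification. The authors background-corrected, quantile normalized and summarised the arrays with aroma.affymetrix by RMA, the robust multi-array average, and deposited linear intensity values per probeset (4.25 to 18486). The version and genome build are not given in the sources used here. RMA forces arrays of a series to like distributions, so levels are relative, and array medians differ between the series, which were normalized separately. Distal 3′ UTR ratios, the study's probe-level measure, were not analysed here.

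Of 33252 probesets on 28 arrays, 19460 carry 1 symbol, 1754 several and 12038 none. For 769 genes with several probesets the highest mean was used, giving 18417 genes, taken to log2 with no pseudocount or filter. A single limma fit (3.58.1, R 4.3.3) over 28 arrays gave every group of a series its own mean, and variances were moderated along the intensity range (residual degrees of freedom 17, prior 8). Knockdowns with 3 hairpins were compared with lacZ of the same series and with the average of its other 3 knockdowns, and F tests compared the 4 of a series. The CPSF6 array entered no test. Benjamini-Hochberg adjustment ran over all genes, and an adjusted p under 0.05 was a call. lacZ replicates 1 and 2, which appear to be the same array, each serve their own series, so neither adds to the other's n. Precision is limited by the number of arrays.

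Named were all measured members, at most 3 called genes per other list and comparison, the targets, and the 3 genes most correlated with each member over arrays. Members and lists were chosen with earlier results of these data known. Hairpin numbers name different sequences in different genes and were not used to pair arrays in the main fit. Alternatives changed 1 choice at a time. The test was tried on simulated data. Python 3.11.15, numpy 2.4.6, pandas 2.3.3 and matplotlib 3.10.9 were used.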

Additional observations from a re-analysis of the deposited data

How the results depend on the processing

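No gene named as called changed direction under any alternative. Of the members called, HSPB1 in PABPC1 and in PRKDC knockdown against lacZ passed under all alternatives, with adjusted p between 8.11e-05 and 0.00864 and between 0.00117 and 0.0434. Leaving out 1 array at a time, the number of members called ranged from 0 to 3 in DDX5 against the other knockdowns (0 with all arrays), from 0 to 1 in PABPC1 against the other knockdowns and in PARP1 and SUPT16H against lacZ (1 with all arrays), from 1 to 3 in PRKDC against lacZ (3), and from 0 to 1 in the second-series F test (1). With quantile normalization over all arrays 2 members were called in PABPC1 and 2 in PARP1 against lacZ, HSPD1 being the added gene in both, and other genes made up the same counts in PRKDC (3, with HSPD1 and BAG3 in place of DNAJB1 and HSPH1) and in SUPT16H (1, HSPD1 in place of DNAJB1). With both lacZ arrays for every knockdown 1 was called in DDX17 (HSPE1). With each series fitted alone 1 was called in PARP1 against the other knockdowns (HSPB1) and 2 by the second-series F test (HSPA8 added). The cause was not tested. Median centring, a pseudocount of 16, a filter at a mean log2 of 5, no intensity trend and the mean of probesets kept every other count within 1.5 times, HSPH1 in PRKDC being lost with that pseudocount and with no trend. Over all genes the number called against lacZ moved far more, in PRKDC from 6574 to 498 without lacZ replicate 2 and 8916 with the series fitted alone, and in CLP1 from 176 to 3344 with both lacZ arrays for every knockdown, a setting without a series term.

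The replicate block, with the hairpin number as a block, left 2 members called in PRKDC (HSPH1 lost, adjusted p = 0.052) and changed no other count of members. Deviations of same-numbered arrays correlated at -0.58 to 0.83 in the first series (median -0.04, 18 pairs) and -0.24 to 0.26 in the second (median 0.03, 18 pairs). Same-numbered arrays were thus not alike in general, though the closest first-series pair was. lacZ replicate 1 could not be left out, since it is the only control of the first series, and where 1 second-series lacZ array was left out the lone control was assumed to vary like the other groups. Signal over background was not available per probe, and a first-series difference from lacZ must be large to pass, with SEs of 0.2 to 0.48 for the members.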
